A study of Rattus norvegicus with 12 samples.

Results

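The 10 genes described here build or specify skeletal muscle, and they were measured in fetal rat pituitaries. They are the myogenic regulators Myod1 and Myog, the troponin genes Tnnt1, Tnnt3, Tnni1, Tnni2 and Tnnc2, the myosin light chain gene Myl1, the skeletal actin gene Acta1 and the muscle creatine kinase gene Ckm. Every probe carrying one of these gene symbols was read, whatever its values, and the genes themselves were chosen with earlier results of these data known. All 10 had a probe, 11 probes in all of 30367 on the array, and all 10 were among the 19350 genes tested. The arrays were 12 one-colour arrays of pituitaries of Wistar rat fetuses at gestational day 18. There were 3 arrays each of male TCDD, male control, female TCDD and female control fetuses, and the exposed fetuses differed from the controls by maternal exposure to TCDD, the dioxin 2,3,7,8-tetrachlorodibenzo-p-dioxin. The labels used here give no dose, no day of dosing and no vehicle. Nor do they tell if 1 pituitary or a pool went on an array, or which fetuses were litter mates, so the p-values below speak for the scatter among these samples, which may in part be technical.

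Skeletal muscle fibres form when precursor cells switch on basic helix-loop-helix regulators such as MyoD and myogenin, leave the cell cycle and fuse. The fibres then fill with sarcomeres, in which myosin pulls on actin filaments, and troponin on those filaments makes the pull depend on calcium: troponin C binds calcium, troponin I holds the filament off and troponin T ties the complex to tropomyosin. Muscle creatine kinase passes high-energy phosphate between creatine and ATP. The pituitary is a gland of hormone-making cells, and striated muscle is not among its known cell types.

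The array signals rested on 60-base probes, and the sequences matter first where members resemble each other or a heart gene, because a probe can then bind a relative's transcript. The troponin T probes below are written from 5′ to 3′, and capitals mark bases that differ from the Tnnt1 line. Tnnt1 codes for slow skeletal troponin T, Tnnt2 for cardiac troponin T and Tnnt3 for fast skeletal troponin T.
Tnnt1: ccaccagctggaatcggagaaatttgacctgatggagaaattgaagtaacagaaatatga
Tnnt2: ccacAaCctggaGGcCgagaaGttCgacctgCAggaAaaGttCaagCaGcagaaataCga
Tnnt3: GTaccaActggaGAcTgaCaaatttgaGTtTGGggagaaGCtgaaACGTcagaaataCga
On the rn4 build these probes lay at chr1:68043171-68043230 (plus strand), chr13:48884921-48884980 (plus strand) and chr1:202758664-202758723 (plus strand), per the file headers and probe annotation. The Tnnt1 probe shared 45 of 60 bases with the Tnnt2 probe and 41 of 60 with the Tnnt3 probe. This is the second Tnnt1 probe. The first, which gives the Tnnt1 values below, lay at chr1:68045083-68045142, and the nearest other probe found for it shared 23 of 41 compared bases.

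The second pair are the troponin C probes. Tnnc2 codes for fast skeletal troponin C, and Tnnc1 for the form of slow skeletal muscle and heart. Capitals mark bases that differ from the Tnnc2 line once the Tnnc1 probe is moved along by 1 base, which leaves 59 bases to compare.
Tnnc2: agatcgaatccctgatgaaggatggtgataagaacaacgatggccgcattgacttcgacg
Tnnc1: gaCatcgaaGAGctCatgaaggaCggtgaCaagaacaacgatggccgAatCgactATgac
They shared 48 of these 59 bases (81.4%), the highest share returned by a search of the other probes that was not complete. They lay at chr3:155807460-155807519 (minus strand) and chr16:6642153-6642212 (plus strand). For the second Tnnt1 probe the search returned the Tnnt3 probe and missed the closer Tnnt2 probe. For the probes of Myod1, Myog, Tnni1, Tnni2, Myl1, Acta1 and Ckm, the nearest probe it returned shared between 53.5% and 57.5% of the compared bases. Closer probes may have been missed there too. The Myl1 probe spanned chr9:65719604-65722502, 2899 bases of genome for its 60 bases, so it crosses at least 1 intron.

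The pituitary genes Pomc (pro-opiomelanocortin) and Cga (the shared subunit of the glycoprotein hormones) stood between 5.74 and 7.00 and between 4.43 and 6.09 on the level scale used throughout, the log2 of the intensity relative to the array's 75th percentile. Ahrr, a target of the aryl hydrocarbon receptor that dioxin activates, lay between -0.22 and 0.68 on exposed arrays and between -6.26 and -4.98 on control arrays, and the exposed and control arrays did not overlap. Cyp1a1, another such target, lay between -2.58 and -1.19 on exposed arrays and between -7.97 and -7.08 on control arrays. Its probe was well above background on 6 arrays. Each control value lay below the lowest level well above background on its array, so it is not a measured level. Gh1, the growth hormone gene, was well above background on 12 arrays, with levels between -4.39 and -1.77 on exposed arrays and between -2.45 and 0.18 on control arrays. A group of 25 sensory ganglion neuron markers averaged 0.41 to 1.85 on 6 arrays (male TCDD 1 and 2, male control 2, female TCDD 1 and 3, female control 2) and -3.32 to -2.69 on the remaining 6. All 12 sat on 3 slides of 4, per the file headers: slide 1 held male TCDD 1 and the 3 male controls, slide 2 held male TCDD 2 and 3 and female controls 1 and 2, and slide 3 held the 3 female TCDD arrays and female control 3.

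RNA of most of these muscle genes was measurable in the pituitaries. The probes of 8 members lay well above background on all 12 arrays, that of Myl1 on 11 and that of Myod1 on 6. Other genes of skeletal muscle gave a mixed picture. The embryonic and perinatal myosin heavy chain genes Myh3 and Myh8 were well above background on 12 arrays, the adult fast genes Myh2 and Myh4 on 0. Myh1, another adult fast gene, was so on 3 arrays, and the heavy chain genes Myh7, Myh7b and Myh13 on 12. The titin gene Ttn, the satellite cell gene Pax7 and the fusion gene Mymk were well above background on 0 arrays. Of the heart markers, Nppa, Nppb, Gata4, Tbx5 and Hand1 were also well above background on 0 arrays. The heart regulator Nkx2-5 was so on 6 arrays, Myl7 on 10, and Tnnt2, Tnni3, Actc1, Corin and Myh6 on 12. In whole-tissue RNA such as this, fewer muscle cells and less muscle RNA per cell cannot be told apart.

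Exposed pituitaries gave lower mean levels of most members than controls, but no member passed the test. In males all 10 members lay below 0 in the difference of TCDD minus control, with a median of -0.60 on the log2 scale, against a median of -0.0097 and 51.4% of genes below 0 over all 19350 genes. In females 9 of 10 lay below 0, with a median of -0.32, against -0.035 and 59.3% over all genes. The fit by limma with Benjamini-Hochberg adjustment over all genes called 0 of 10 members at an adjusted p below 0.05 in males, where it called 0.0103% of all genes, and 0 of 10 in females, where it also called 0.0103%. At an unadjusted p below 0.05 there were 4 members in males (Tnni2, Tnnt1, Tnnt3 and Myl1, all lower) and 0 in females, against 9.34% and 2.68% of all genes. Over both sexes, as the mean of the male and female differences, the median was -0.42 with 10 of 10 below 0, against -0.023 and 55.8% over all genes. There limma called 0 members and 0.0207% of all genes. Members with an unadjusted p below 0.05 numbered 4 (Tnni1, Myl1, Tnnt1 and Myod1), against 6.46% of all genes. With normexp background correction the median differences were -0.39 (males), -0.17 (females) and -0.24 (both sexes). With array quality weights, an alternative that gave male TCDD 2 a weight of 12.7, limma called 8 of 10 members in males, where it called 33.8% of all genes. Of these 8, Ckm was called higher (1.70) and the others lower.

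**Figure D1:**
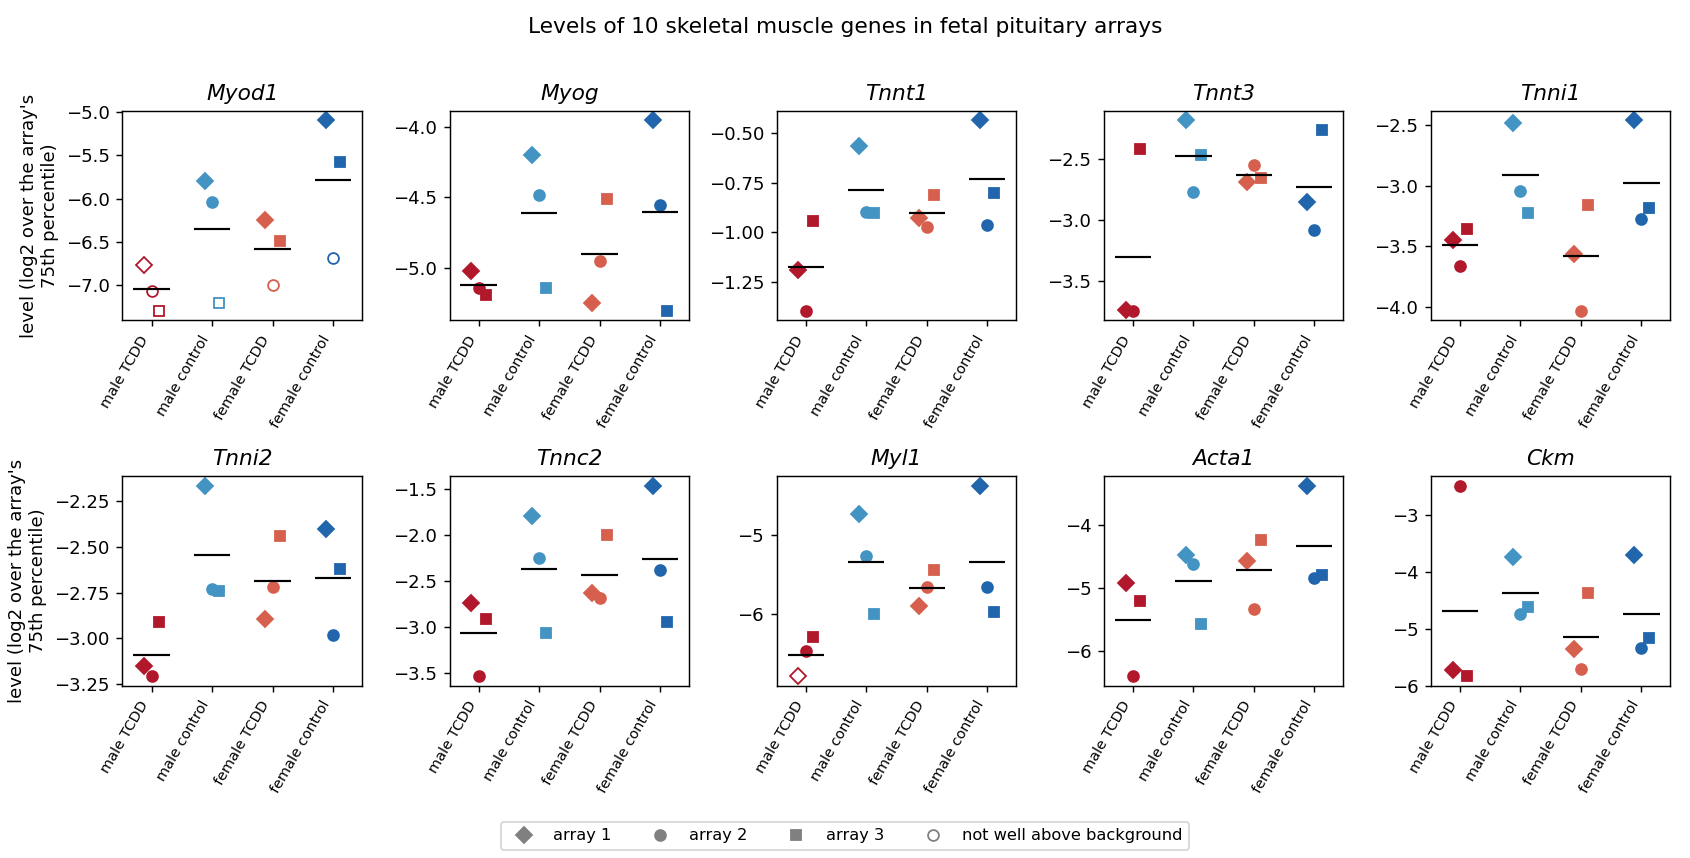
Level of each of the 10 members (y axis, log2 of the intensity over the array's 75th percentile, a scale of its own in each panel) on every array, by group (x axis), with a line at each group's mean. Diamonds, circles and squares are arrays 1, 2 and 3, and open symbols were not well above background. The diamonds of male control 1 and female control 1 are the highest or among the highest points in most panels, and Ckm on male TCDD 2 stands far above the other 2 exposed males.

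Myod1 codes for MyoD, the regulator that can turn other cell types to muscle. Its probe (rn4 chr1:96912833-96912892, plus strand) was dim. The levels were -6.77, -7.07 and -7.30 in male TCDD arrays and -5.80, -6.04 and -7.20 in male controls. None of the 3 exposed males and 2 of the 3 male controls measured it well above background, so only a bound can be given there. Counted so, the exposed males lay 1.18-fold below the mean of male controls. That mean, -6.35 ± 0.75 (SD, n = 3), includes male control 3, itself not well above background. A smaller difference is therefore possible. The measured mean of exposed males was -7.05 ± 0.26 (n = 3). In females, 2 of 3 arrays of each group measured it. The levels were -6.25, -7.00 and -6.49 in female TCDD arrays and -5.09, -6.69 and -5.57 in female controls. The groups overlapped in both sexes, and the highest array was female control 1. The fitted difference over both sexes, -0.75 ± 0.33 (SE, adjusted p = 0.671), includes the exposed males that have only a bound, and it was -0.22 with normexp background correction of the raw signals.

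Myog codes for myogenin, which drives the last step from myoblast to fibre. Its probe lay at rn4 chr13:47246094-47246153 (plus strand). The levels were -5.02, -5.15 and -5.20 in male TCDD arrays and -4.20, -4.49 and -5.15 in male controls. They were -5.25, -4.95 and -4.52 in female TCDD arrays and -3.95, -4.55 and -5.31 in female controls. The exposed males lay close together at the low end of the male controls' range, while female control 3 was the lowest of all 12 arrays and female control 1 the highest. The differences were -0.51 ± 0.35 in males (SE, adjusted p = 0.530) and -0.30 ± 0.35 in females (adjusted p = 1.00), short of the threshold in both.

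The DNA before the start of Myog, Ckm and Acta1 is shown because these promoters are textbook targets of the myogenic regulators. Each line holds the 250 bases before the gene's start, 5′ to 3′ on the gene's strand, from RefSeq on GRCr8, a later build than that of the probe positions. Capitals mark matches on either strand to CANNTG (the E-box that MyoD and myogenin bind), which takes in the form CAGCTG, and to the motif TATAAA of core promoters, the MEF2 consensus and the CArG box of serum response factor.
Myog: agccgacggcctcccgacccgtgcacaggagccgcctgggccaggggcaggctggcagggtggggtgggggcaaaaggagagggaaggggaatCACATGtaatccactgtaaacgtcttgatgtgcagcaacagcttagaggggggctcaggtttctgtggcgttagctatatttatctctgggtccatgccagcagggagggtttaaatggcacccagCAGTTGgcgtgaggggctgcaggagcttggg
Ckm: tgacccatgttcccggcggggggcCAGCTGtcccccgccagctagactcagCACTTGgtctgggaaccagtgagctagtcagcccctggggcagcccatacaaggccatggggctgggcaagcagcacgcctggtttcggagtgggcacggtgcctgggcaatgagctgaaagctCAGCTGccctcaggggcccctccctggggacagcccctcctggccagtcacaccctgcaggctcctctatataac
Acta1: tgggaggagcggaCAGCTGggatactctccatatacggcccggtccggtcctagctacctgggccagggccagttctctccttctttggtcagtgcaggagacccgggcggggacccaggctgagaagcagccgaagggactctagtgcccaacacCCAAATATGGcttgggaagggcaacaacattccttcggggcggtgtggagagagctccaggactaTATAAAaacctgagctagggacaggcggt
These windows lie at chr13:48297226-48297475 (plus strand), chr1:88189211-88189460 (plus strand) and chr19:68784195-68784444 (minus strand). Myog held 2 matches to CANNTG, Ckm held 3, of which 2 were CAGCTG, and Acta1 held 1 CAGCTG, 1 TATAAA and 1 CArG box. RefSeq windows matched 8 of the 10 members, with 9 windows since Myl1 has 2 starts, and Myod1 and Tnnt3 were not matched. CANNTG was found in 9 of 9 member windows and in 65.5% of all 33469 windows. Its form CAGCTG was in 2 of 9 and in 12.0% of all, TATAAA in 4 of 9 and in 12.9%, the MEF2 consensus in 1 of 9 and in 2.96%, and the CArG box in 1 of 9 and in 1.497%. A match is a run of letters and was not tested for binding. Runs that depart from a motif are not marked, so an unmarked stretch does not show that a site is absent.

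Tnnt1, the slow troponin T gene, showed the narrowest spread of the members. Its first probe read -1.19, -1.40 and -0.94 in male TCDD arrays and -0.56, -0.89 and -0.90 in male controls. In females it read -0.93, -0.97 and -0.81 in TCDD arrays and -0.43, -0.96 and -0.80 in controls. Every exposed male lay below every control male, by a small margin for male TCDD 3, and the female groups overlapped. The share of all genes with male groups apart in this way was not counted. Such separation, here and for Tnni1, Tnni2, Myl1 and the member mean below, is therefore only a description. The differences were -0.39 ± 0.16 in males (SE, adjusted p = 0.507) and -0.17 ± 0.16 in females (adjusted p = 1.00). The second probe, printed above, gave -0.064 ± 0.19 in males and -0.32 ± 0.19 in females, so the larger difference lay in males by one probe and in females by the other. It was not called by limma either (adjusted p = 0.884 in males).

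Tnnt3, the fast troponin T gene, differed from the other members in its order of arrays. It read -3.74, -3.75 and -2.42 in male TCDD arrays and -2.18, -2.77 and -2.47 in male controls. In females the levels were -2.69, -2.55 and -2.66 in TCDD arrays and -2.85, -3.08 and -2.26 in controls. Male TCDD 1 and 2 stood well below all the other arrays and male TCDD 3 within the control range. The male difference was -0.83 ± 0.34 (SE, adjusted p = 0.507). Male TCDD 1 and 2 were also the exposed males with high ganglion markers. In females it was 0.097 ± 0.34 (adjusted p = 1.00), the one member above 0.

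Tnni1 codes for slow troponin I and had similar differences in both sexes. Its probe lay at rn4 chr13:48840073-48840132 (plus strand). The levels were -3.44, -3.66 and -3.36 in male TCDD arrays and -2.48, -3.04 and -3.22 in male controls. In females they were -3.56, -4.03 and -3.16 in TCDD arrays and -2.46, -3.28 and -3.19 in controls. The male groups did not overlap, and in females only TCDD 3 lay above controls 2 and 3. The difference was -0.58 ± 0.28 in males (SE, adjusted p = 0.507) and -0.61 ± 0.28 in females (adjusted p = 1.00). Over both sexes it was -0.59 ± 0.20, a 1.51-fold lower level, with the smallest unadjusted p of the members (0.0140) and an adjusted p of 0.671.

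Tnni2 codes for fast troponin I, and its rn4 position was chr1:202690056-202690115 (plus strand). The levels were -3.15, -3.21 and -2.91 in male TCDD arrays and -2.17, -2.73 and -2.74 in male controls. In females they were -2.90, -2.72 and -2.44 in TCDD arrays and -2.41, -2.98 and -2.62 in controls. The male groups were apart, the female groups were mixed. The male difference was -0.54 ± 0.20 (SE, adjusted p = 0.507) and the female one -0.017 ± 0.20 (adjusted p = 1.00). The test of the difference between the sexes gave -0.53 ± 0.29 (adjusted p = 0.883).

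Tnnc2, the fast calcium-binding subunit, read -2.75, -3.54 and -2.91 in male TCDD arrays and -1.80, -2.25 and -3.07 in male controls. In females it read -2.63, -2.68 and -2.00 in TCDD arrays and -1.47, -2.39 and -2.95 in controls. Male control 3 and female control 3 lay among the exposed arrays, and the other controls above most of them. The differences were -0.69 ± 0.42 in males (SE, adjusted p = 0.519) and -0.17 ± 0.42 in females (adjusted p = 1.00). Tnnc1, whose probe shares most of its bases, had a difference of -0.35 ± 0.15 over both sexes (adjusted p = 0.671), against -0.43 ± 0.29 for Tnnc2.

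Myl1 codes for the alkali light chains of fast myosin and gave the largest male difference of the 10. The levels were -6.79, -6.48 and -6.30 in male TCDD arrays and -4.74, -5.27 and -6.01 in male controls. In females they were -5.91, -5.66 and -5.44 in TCDD arrays and -4.38, -5.66 and -5.98 in controls. All 3 exposed males lay below all 3 control males, and male TCDD 1 was not well above background, while the exposed females lay inside the range of their controls. The male difference was -1.18 ± 0.43 (SE, adjusted p = 0.507), a 2.27-fold lower level, and the female one -0.33 ± 0.43 (adjusted p = 1.00). With normexp background correction of the raw signals the male difference was -0.39.

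Acta1 codes for the actin of skeletal thin filaments, and its probe lay at rn4 chr19:54082977-54083036 (minus strand). The levels were -4.92, -6.40 and -5.20 in male TCDD arrays and -4.47, -4.61 and -5.57 in male controls. In females they were -4.58, -5.33 and -4.23 in TCDD arrays and -3.37, -4.84 and -4.79 in controls. Female control 1 was far above and male TCDD 2 far below the other arrays, an 8.19-fold span. The differences were -0.62 ± 0.52 in males (SE, adjusted p = 0.574) and -0.38 ± 0.52 in females (adjusted p = 1.00). Without male TCDD 2 the male difference was -0.18.

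Ckm, the creatine kinase of muscle (rn4 chr1:78772431-78772490, plus strand), varied most. The levels were -5.72, -2.49 and -5.84 in male TCDD arrays and -3.74, -4.75 and -4.63 in male controls. In females they were -5.36, -5.71 and -4.38 in TCDD arrays and -3.71, -5.34 and -5.16 in controls. The exposed males held both the highest array of all 12, male TCDD 2, and the lowest, male TCDD 3, a 10.2-fold span. In linear intensity male TCDD 2 read 187 where the other exposed males read 21.3 and 17.9. The male difference was -0.31 ± 0.83 (SE, adjusted p = 0.865) with all arrays and -1.41 without male TCDD 2. The female difference was -0.41 ± 0.83 (adjusted p = 1.00).

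**Figure D2:**
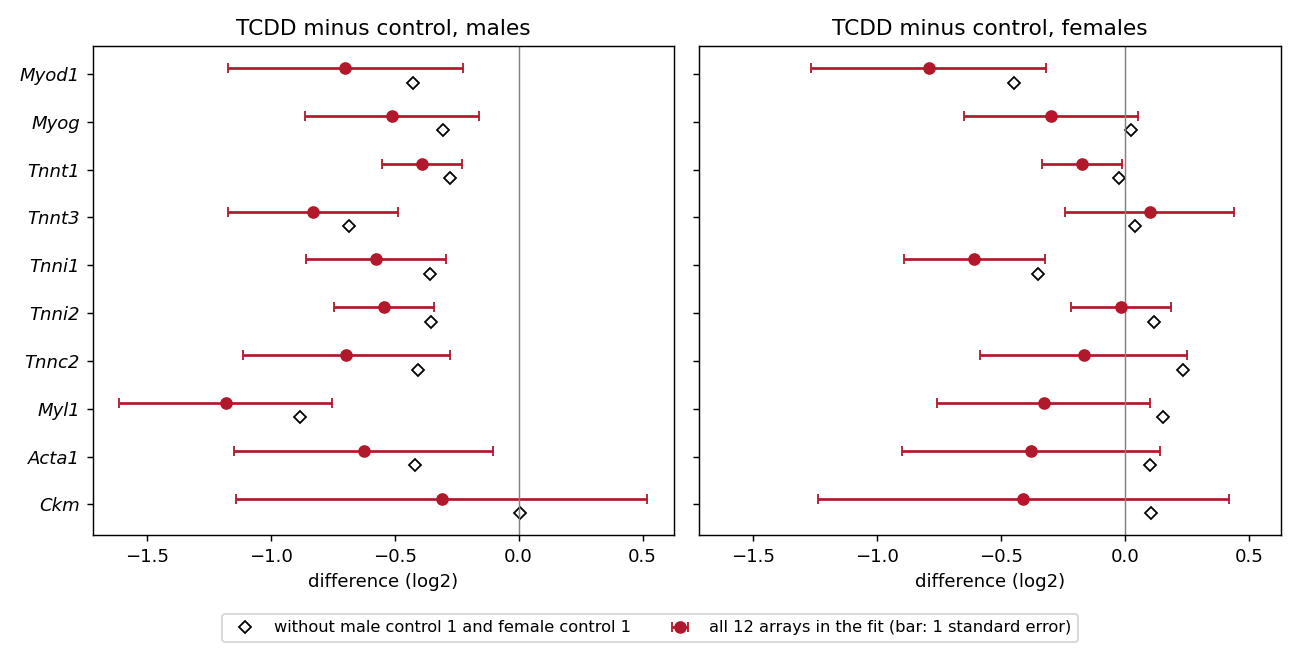
Difference of TCDD minus control (x axis, log2) for each member (y axis), in males on the left and in females on the right. Filled points with bars are the limma estimates ± 1 standard error, and open diamonds are the estimates without male control 1 and female control 1, which lie closer to 0 for all 10 male differences and leave 3 of 10 female differences below 0.

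Most members were high on the same arrays. Each member was centred on its own mean over the 12 arrays, and the 10 were averaged. This member mean was -0.47, -0.44 and -0.36 on male TCDD arrays 1 to 3 and 0.66, 0.19 and -0.22 on male controls 1 to 3. It was -0.13, -0.28 and 0.26 on female TCDD arrays and 0.87, -0.10 and 0.01 on female controls. The exposed males were all below the control males, and the exposed females were mixed with their controls. The arrays numbered 1 of both control groups stood highest: female control 1 was the highest array for 7 members and male control 1 for 2, with male TCDD 2 highest for Ckm. The spread among controls (SD 0.44 in males and 0.53 in females, n = 3 each) was of the size of the differences between group means (-0.64 and -0.31).

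The differences depended on which control arrays were in the fit. Without male control 1 and female control 1, the highest arrays, an alternative chosen after the levels were seen that by its choice brings differences toward 0, the median difference was -0.38 in males with 9 of 10 members below 0, 0.069 in females with 3 of 10 below 0, and -0.15 over both sexes with 9 of 10 below 0. Without male control 3 the male median was -0.80, and without female control 3 the female median was -0.62. Within slide 1, which sets male TCDD 1 against the 3 male controls, the median was -0.48 with 10 of 10 below 0. Within slide 3, which sets the 3 exposed females against female control 3, it was -0.028 with 5 of 10 below 0. With slide as a fixed block over both sexes it was -0.40 with 8 of 10 below 0. Slide 2 held no male control and no exposed female. The block value therefore rests on the same arrays as the within-slide values.

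Levels of markers of other tissues are given here beside the members. In each sex limma called 0 of the ganglion, glia, pituitary, connective tissue and smooth muscle genes listed, and 0.0103% of all genes. Over all genes 9.34% in males and 2.68% in females had an unadjusted p below 0.05, and 51.4% and 59.3% lay below 0. The 25 ganglion neuron markers averaged -0.0050 in exposed males, against -1.83 in control males, and -0.68 in exposed females, against -1.75 in control females, with the high level on 4 exposed and 2 control arrays and 0 of 25 at an unadjusted p below 0.05 in either sex. The 11 glia markers had a median difference of 1.00 in males, with 11 above 0, and of 0.50 in females, with 9 above 0, and 1 in males and 0 in females had an unadjusted p below 0.05. Of the 18 pituitary hormone and lineage genes, 17 lay below 0 in each sex with a median of -0.47 in both, and 5 in males and 2 in females had an unadjusted p below 0.05. Over both sexes the median of these 18 was -0.48, against -0.42 for the members. There 10 of the 18 had an unadjusted limma p below 0.05, all lower, against 6.46% of all genes, and 0 were called. Connective tissue markers had a median of -0.33 in males and 0.12 in females over 13 genes, and smooth muscle markers 0.035 and 0.014 over 9. With the ganglion mean as a covariate the members' median difference was -0.57 in males and -0.31 in females. Without the 6 arrays of high ganglion signal it was -0.49 and -0.48, values that rest on 1 exposed array against 2 controls in each sex. The part of these tissues in the muscle differences was not tested.

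**Figure D3:**
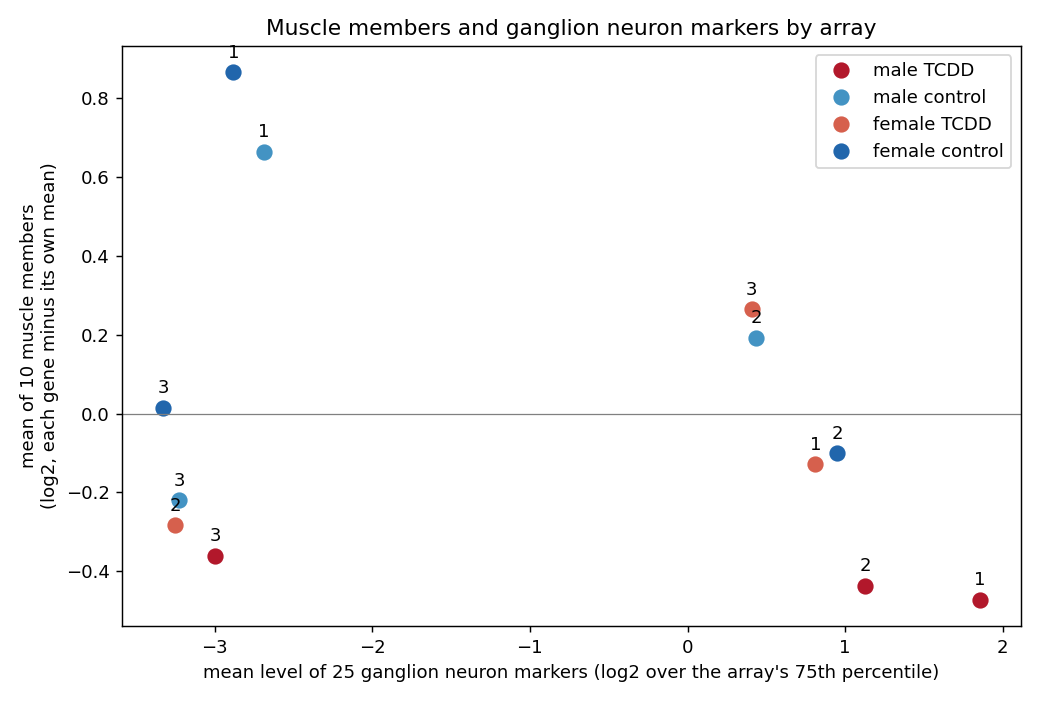
Mean of the 10 muscle members (y axis, log2, each gene minus its own mean over 12 arrays) against the mean level of 25 ganglion neuron markers (x axis, log2 over the array's 75th percentile), with 1 point for each array, coloured by group and labelled with its array number. The 2 highest muscle means, 0.87 and 0.66, are those of female control 1 and male control 1, and both lie among the 6 arrays of low ganglion signal.

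The TCDD difference in males was not shown to differ from that in females. The interaction, the male difference minus the female one, had a median of -0.23 over the members, with 7 of 10 below 0, and limma called 0 of 10 where it called 0.0% of all genes. No member had an unadjusted p below 0.05, and 863 of the 19350 genes did. The smallest member p-values belonged to Tnnt3 (-0.93 ± 0.48, unadjusted p = 0.0832) and Tnni2 (unadjusted p = 0.0946), both with an adjusted p of 0.883. Male controls against female controls likewise gave 0 of 10 members called, where limma called 0.0103% of all genes. The member differences of male minus female controls ran from -0.56 for Myod1 to 0.36 for Ckm, with 0 at an unadjusted p below 0.05.

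How closely the members kept to each other is given as a description over the 12 arrays, which share their scaling and the 2 high control arrays. Over the 45 pairs of members the median Pearson correlation was 0.69, from -0.23 (Tnnt3 and Ckm) to 0.91 (Tnnc2 and Acta1). Myl1 followed the mean of the other 9 members most closely (r = 0.93, Spearman's rho = 0.90), and Tnnt3 followed it little (r = 0.31, rho = 0.19). Ckm had r = 0.18 over 12 arrays and 0.89 over the 11 without male TCDD 2. Without male control 1 and female control 1, the correlation with the other members over 10 arrays was 0.79 for Myl1, 0.76 for Tnni2 and 0.70 for Tnnt1, and lower for the other members, down to -0.35 for Ckm.

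The genes outside the list whose levels were most like the member mean over the 12 arrays included 5 muscle genes among the first 10. Pgam2, the muscle phosphoglycerate mutase, came first (r = 0.96, rho = 0.93, and r = 0.88 over the 10 arrays without both number 1 controls). Actc1 (cardiac actin, also made in fetal skeletal muscle) had r = 0.92, Myh3 had 0.92, and the myosin light chain genes Myl11 and Myl4 had 0.91 and 0.90. The other 5 were the class I histocompatibility genes RT1-CE16 (0.92) and RT1-CE2 (0.85), the transcript TC588602 (0.91), the casein kinase gene Csnk1d (0.90) and Acsm5 (0.86). For RT1-CE2 the correlation was 0.54 without both number 1 controls. An r above 0.7 was reached by 163 of 19308 other genes. Of the muscle lists they took in 4 of 21 other sarcomere genes, 3 of 19 genes for excitation and calcium release, 2 of 12 genes of muscle metabolism, 2 of 7 myosin heavy chain genes and 0 of 13 myogenic regulators. The likeness was not particular to muscle lists. Over 17 pituitary hormone and lineage genes the median r was 0.53, with 0 above 0.7. That median was 0.44 for the other sarcomere genes, 0.079 for the myogenic regulators and 0.074 over all genes.

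Myosin heavy chain genes split. Myh3 (r = 0.92 with the member mean) and Myh8 (0.80) followed the members, while Myh6 (-0.39), Myh7 (-0.43) and Myh13 (-0.45) did not. Over both sexes the TCDD minus control difference was 1.38 ± 0.19 for Myh7, 1.48 ± 0.21 for Myh6 and 1.60 ± 0.26 for Myh13 (SE, adjusted p = 0.0681, 0.0771 and 0.117), against -0.49 ± 0.32 for Myh3 and -0.30 ± 0.25 for Myh8 (adjusted p = 0.671 and 0.683). Myh6 levels were between -0.81 and 0.29 on all 6 exposed arrays and between -1.98 and -0.91 on all 6 control arrays.

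**Figure D4:**
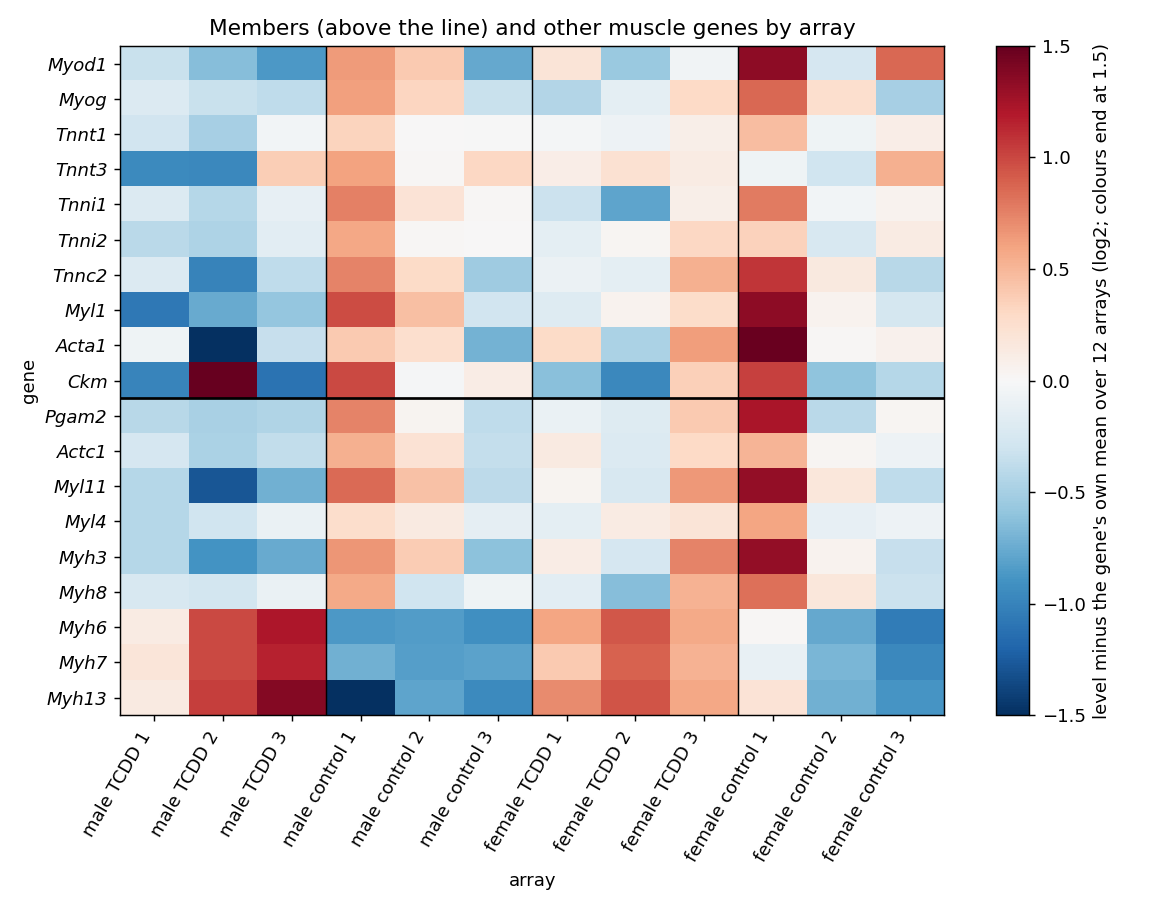
Level of each gene minus its own mean over 12 arrays (colour, log2, with colours ending at 1.5 either way) for the 10 members above the black line and 9 other muscle genes under it, by array (x axis). The members, Pgam2, Actc1, Myl11, Myl4, Myh3 and Myh8 are mostly red on male control 1 and female control 1, and Myh6, Myh7 and Myh13 are red on the exposed arrays.

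Other genes of muscle were read from 5 further lists, chosen with earlier results of these data known, and limma called 0 of their genes over both sexes. There it called 0.0207% of all genes. Over all genes 55.8% lay below 0, the median was -0.023 and 6.46% had an unadjusted p below 0.05. Of the other sarcomere genes, 21 of 37 could be tested, 17 lay below 0 and the median difference was -0.12, with 5 at an unadjusted p below 0.05, all lower. These were Myoz1 (calsarcin, of the Z disc, -0.85 ± 0.24), Csrp3 (muscle LIM protein, -0.70 ± 0.29), Mybpc2 (fast myosin-binding protein C, -0.64 ± 0.24), Klhl41 (-0.55 ± 0.20) and Tnnc1, each with an adjusted p of 0.671. The probes of Myoz1 and Csrp3 were dim, well above background on only 5 and 6 of the 12 arrays, so the sizes of their differences are uncertain. Those of Mybpc2, Klhl41 and Tnnc1 were so on all 12. Of 19 genes for excitation and calcium release, 13 lay below 0 with a median of -0.15. The acetylcholine receptor subunit Chrnb1 (-0.49 ± 0.16) and the calcium pump Atp2a1 (-0.62 ± 0.26) had the smallest p, both with an adjusted p of 0.671. Among 12 genes of muscle metabolism, 5 lay below 0 and the median was 0.11, with Ampd1 (AMP deaminase of muscle) at -0.57 ± 0.22.

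The regulators upstream of the members showed little difference. Of 13 measured myogenic regulators, 8 lay below 0 over both sexes with a median of -0.070, and 1, the repressor of myogenesis Msx1, had an unadjusted p below 0.05 (-0.50 ± 0.21, adjusted p = 0.671). Myf5, which acts beside MyoD in precursors, differed by -0.061 ± 0.16 (adjusted p = 0.889), and Pax3, which acts before them in the limb and trunk, by 0.13 ± 0.094 (adjusted p = 0.671). Heart markers numbered 7 tested of 15, with 5 below 0 and a median of -0.13. Beside both lists, 55.8% of all genes lay below 0 over both sexes, with a median of -0.023, and 6.46% had an unadjusted p below 0.05.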

How the data were processed

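Per the file headers, the deposited scanner files hold linear intensity values from Agilent Feature Extraction 10.7.1.1, with probe positions on rn4. Version 9.5.1.1 stands in the submitters' processing notes. A value table deposited by the authors holds intensity too. Every column has its median at 83.5 and ranks probes as the scanner file does (Spearman 1.0), so it was taken as quantile-normalized linear intensity. That step is not given in the sources used here, and 1-colour values have no direction to settle.

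The processed intensity was turned to log2 after leaving out control and outlier spots, and each array's 75th percentile was subtracted, so levels are log2 values made here from the deposited intensities. Probes well above background on at least 3 of 12 arrays with at least 10 values were kept (22430 of 30367), and the brightest kept probe stood for a gene, with names from the reference table for 18006 probes by accession and 3213 by symbol. Between 75.1% and 78.4% of spots per array were well above background and 0 were saturated. Precision is limited by how many arrays there are. Differences were fitted with limma 3.58.1 (R 4.3.3) over 19350 genes on the 12 arrays together, with 4 group means, an intensity trend and Benjamini-Hochberg adjustment, and called at an adjusted p below 0.05. The fit was tested on simulated data.

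Alternatives were normexp background correction (offset 50), other scalings, filters and probe rules, the authors' table, slide, replicate number, ganglion markers, array weights, variance settings, the groups compared alone and leaving out each array. For members, a probe that no array of a group measured well above background is given as a bound. In it each array of that group counts at the higher of 2 values. These are its own level and the lowest level of any probe well above background there. The genes named are all members, up to 3 genes with the smallest p in each muscle list, the 10 genes most like the member mean, and Gh1, Ahrr and Cyp1a1. Genes named beyond this rule (Csrp3, Tnnc1, Myh3, Myh8, Myf5, Pomc, Cga, and the heart and muscle genes given only by their number of arrays above background) were chosen after their values were seen. Members and lists were chosen with earlier results of these data known.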

Additional observations from a re-analysis of the deposited data

How the results depend on the processing

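Limma called 0 members in each comparison that an alternative allowed, apart from array quality weights, which called 8 in males beside 33.8% of all genes. Within 1 slide allowed 2 comparisons, the fit of only the groups compared allowed 3, and the filter on all 12 arrays left 8 members. These weights gave male TCDD 2 a weight of 12.7, so that the male difference followed that array. Ckm then turned to 1.70 in males (adjusted p = 0.0487) and 0.69 over both sexes, while 7 members were called lower. Normexp background correction moved the median difference to -0.39 in males, -0.17 in females and -0.24 over both. The median with each array left out in turn ran from -0.80 to -0.38 in males, from -0.62 to 0.069 in females (0.069 without female control 1), from -0.59 to -0.25 over both, -0.60 to -0.069 for the interaction and -0.21 to 0.28 between controls. Slide as a fixed block moved the interaction to -0.67. Without both number 1 controls, chosen after the data were seen, the female median was 0.069. The cause of these changes was not tested.

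Single differences that changed sign had been short of the threshold. In females with slide as a fixed block, and with the same values within slide 3, they were Myog 0.40, Tnnt3 -0.38, Tnnc2 0.51, Myl1 0.31, Ckm 0.010 and Acta1 0.077, and over both sexes with the block Tnnc2 0.071 and Acta1 0.021. Without both number 1 controls they were Ckm 0.0059, in females Myog 0.024, Tnni2 0.12, Tnnc2 0.23, Myl1 0.15, Ckm 0.10 and Acta1 0.10, and over both sexes Ckm 0.055. Tnni2 in females was 0.013 with median centring and 0.045 with the ganglion covariate. Leaving out 1 array turned 13 single differences, and the ranges were -1.41 to 0.27 for Ckm in males and, in females, -0.078 to 0.33 for Tnnt3, -0.51 to 0.23 for Tnnc2, -0.65 to 0.024 for Myog, -0.17 to 0.12 for Tnni2, -0.65 to 0.15 for Myl1, -0.80 to 0.10 for Ckm and -0.63 to 0.10 for Acta1.

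A check of the replicate numbers of the titles showed no steady pairing of the arrays. Of 18 same-numbered pairs, 8 had a correlation of deviations over 0.1, with a range from -0.70 to 0.75. Of 12 arrays, 5 correlated best with their own number. Arrays of unlike number also correlated, as did male TCDD 1 and female control 2 (0.58), both of high ganglion signal. The check therefore cannot exclude a pairing or shared litters. With the replicate block the medians stayed at -0.60 (males), -0.32 (females) and -0.42 (both sexes), and limma called 0 members.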

Other observations

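Myf6, a myogenic regulator of late fibre formation, was picked after its values were seen. Its level was -3.98 on male TCDD 3 and -2.56 on female control 3, while the other 10 arrays lay between -8.15 and -6.13, and its probe was well above background on 3 arrays. Of the members, Tnnt3 also had high levels on these arrays (-2.42 on male TCDD 3 and -2.26 on female control 3, with -2.18 on its highest array).

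Pvalb, the calcium buffer parvalbumin of fast muscle and of some neurons, was likewise picked after its values were seen. It read -0.84, 0.50 and -5.26 on male TCDD arrays and -5.15, -2.72 and -5.08 on male controls, and -2.12, -5.39 and -3.25 on female TCDD arrays and -4.58, -2.36 and -4.76 on female controls. The 6 arrays with the highest levels were those on which the ganglion neuron markers were high.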
